A study of Mus musculus with 24 samples.

Results

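The 10 genes described here carry iron and calcium across the absorptive epithelium of the mouse intestine. They were chosen by name from the 53465 genes of the count table as genes of uptake, storage, export or control of these metals. Earlier results of these data were known at that choice. The iron genes are *Cybrd1*, *Slc11a2*, *Fth1*, *Heph*, *Slc40a1* and *Tfrc*, and the calcium genes are *Trpv6*, *S100g*, *Atp2b1* and *Vdr*. Of these, 9 passed the filter on low counts and were tested, and *Trpv6* did not.

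The study asked which intestinal cells make guanylin, the peptide encoded by *Guca2a*. It used the Guca2a-Venus strain, in which the guanylin promoter on a bacterial artificial chromosome drives Venus, a yellow fluorescent protein put where the chromosome had coded for guanylin. Epithelium of the duodenum, jejunum, ileum and colon was digested to single cells, and cells with high Venus fluorescence and cells without fluorescence were sorted by flow cytometry. RNA of each population was sequenced in 3 libraries, which gave 24 libraries in 8 groups. All groups came from the same transgenic strain, which goes back to a single founder from ova of C57Bl6J/CBA F1 crosses and was later crossed onto C57Bl6J for differing numbers of generations, on standard chow, with no treatment. The labels call the sorted cells GFP positive and GFP negative, and the age and sex of the mice are not stated in the labels. Both gates took only live cells with a nucleus that lacked the leukocyte marker CD45. The duodenum, jejunum and ileum were short segments from the top, middle and bottom of the small intestine, and the colon was taken whole with the rectum. The design states that the triplicates came from 3 mice, but the labels do not name the mouse of a library. Positive and negative cells of the same mouse were therefore not paired. A negative population holds every epithelial cell without fluorescence, and a positive population can hold several cell types too. In these bulk samples fewer cells of a type and less RNA per cell therefore cannot be told apart. The cell type markers of the positive cells differed between regions, as given below.

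Dietary ferric iron is reduced at the brush border by the cytochrome Cybrd1 and enters the enterocyte through the divalent metal transporter Slc11a2. It is stored in ferritin, whose heavy chain is Fth1, or leaves as ferrous iron through ferroportin (Slc40a1) and is oxidised by hephaestin (Heph), so that transferrin can bind it. Dietary calcium enters through the channel Trpv6, is carried across the cytosol by calbindin-D9k (S100g) and is pumped out by Atp2b1, and the vitamin D receptor (Vdr) controls several of these genes. Both routes are classically placed in the duodenum.

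Several of the iron genes carry iron-responsive elements, stem-loops in the untranslated regions (UTRs) of the mRNA that bind the iron regulatory proteins Aco1 and Ireb2. In a 5′ UTR the binding blocks translation and in a 3′ UTR it protects the mRNA from decay. The UTRs of the protein-coding transcripts of GENCODE M21 (GRCm38) were searched on the transcribed strand for a C, 5 bases that pair with the 5 bases after the loop, and a loop of 6 bases that begins CAGTG, with at least 4 further pairs in the 5 positions below the C. Such a stem-loop was found in 18 of 21741 genes (0.0828%). Among the 10 genes, *Fth1* and *Slc40a1* held 1 each in the 5′ UTR and *Tfrc* held 4 in the 3′ UTR, and the light chain of ferritin, *Ftl1*, held 1 in the 5′ UTR. They are shown because 3 of the iron genes share them, with the loop in capitals. A match describes these letters and is no measurement of binding. None was found in *Slc11a2* under this pattern. The pattern allows no unpaired base among the 5 pairs next to the loop, so elements of another shape would be missed.

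Fth1, 5′ UTR, chr19:9982733-9982759, plus strand: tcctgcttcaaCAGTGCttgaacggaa

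Ftl1, 5′ UTR, chr7:45459780-45459806, minus strand: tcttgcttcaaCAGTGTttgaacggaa

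Slc40a1, 5′ UTR, chr1:45925466-45925492, minus strand: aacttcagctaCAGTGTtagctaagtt

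Tfrc, 3′ UTR, chr16:32631220-32631246, plus strand: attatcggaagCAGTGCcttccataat

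Tfrc, 3′ UTR, chr16:32631599-32631625, plus strand: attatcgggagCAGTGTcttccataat

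Tfrc, 3′ UTR, chr16:32631664-32631690, plus strand: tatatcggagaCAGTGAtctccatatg

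Tfrc, 3′ UTR, chr16:32631711-32631737, plus strand: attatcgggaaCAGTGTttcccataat

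The reads on genes numbered 7458616 to 23063124 in a library. Mitochondrial genes took 32.3% to 46.6% of them in the positive and 64.6% to 76.4% in the negative libraries of the duodenum, 47.1% to 60.6% and 61.2% to 78.8% in the jejunum, 41.0% to 55.4% and 64.7% to 70.9% in the ileum, and 68.6% to 77.9% and 65.3% to 80.7% in the colon. This share was thus lower in the positive cells of the small intestine, without overlap, and with mitochondrial and non-coding genes left out the calls between sorts stayed the same for the members, apart from *Fth1* in the duodenum, which was lost, and in the ileum, which was gained. Levels are given as CPM, a gene's counts relative to the library's total after scaling by the TMM factors of edgeR. Fewer than 3 counts were taken as below detection, a floor of 0.106 to 0.36 CPM depending on the library. The libraries were amplified and carried no molecular identifiers, so copies of 1 molecule can count several times, and the floor and the counting intervals given here cover counting error only. *Guca2a*, the gene of the sort, had mean levels of 285, 153, 191 and 612 CPM in the positive cells from duodenum to colon and of 5.28, 24.5, 26.2 and 94.8 CPM in the negative cells, and within each region the libraries did not overlap. Counts on *Guca2a* can include the untranslated parts of the transgene. Of 12 enterocyte markers, 12 were higher in the positive jejunum and 12 in the positive ileum, 6 in the positive colon, and in the duodenum 2 were higher and 2 lower. Of 4 colonocyte markers, 4 were higher in the positive colon and 3 in the positive ileum, and 2 were lower in the positive duodenum and 1 in the positive jejunum. All 8 goblet markers were higher in the positive cells of every region, and all 6 Paneth markers in those of the duodenum, jejunum and ileum. Erythroid markers were at or near 0, with a summed level of at most 2.12 CPM over 6 genes in any library.

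*Heph* was higher and *Tfrc* lower in the positive cells of all 4 regions, while *Atp2b1* was higher in the jejunum, ileum and colon. By the quasi-likelihood test of edgeR, with adjustment over 15044 genes and a threshold of 0.05, 1 of the 9 tested members was higher and 2 were lower in the positive cells of the duodenum, where 17% of all genes tested passed. In the jejunum 3 were higher and 2 lower, beside 43.9% of all genes, and in the ileum 3 were higher and 1 lower, beside 38.5%. In the colon 5 were higher and 1 lower, beside 13.1%. From duodenum to colon, the 9 members had median log2 fold changes of -0.28, 0.44, 0.73 and 1.10, where the medians over all genes tested were -0.16, -0.28, -0.27 and 0.

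**Figure D1:**
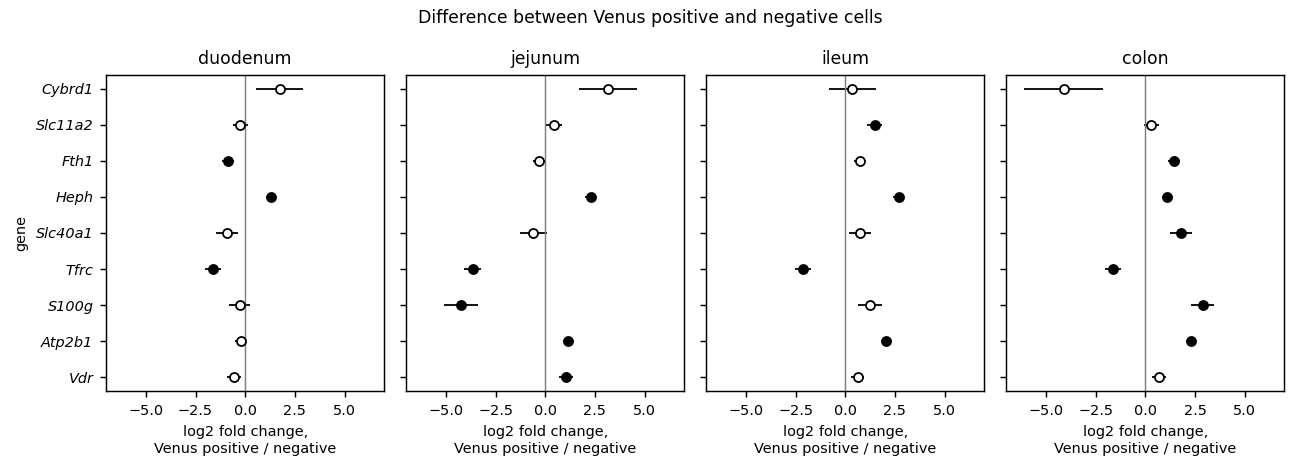
Log2 fold change of Venus positive over negative cells (x axis) for the 9 tested genes (y axis), 1 panel per region. Points are estimates of the edgeR model, bars are standard errors, and filled points passed an adjusted p of 0.05. *Heph* lies to the right and *Tfrc* to the left of 0 in all 4 panels, with filled points.

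*Cybrd1* (chr2:71117923-71142926), the brush-border reductase, was close to the floor in most libraries. In the duodenum it lay at 1.33, 6.90 and 2.93 CPM in the positive libraries and at 0.702, 1.49 and 1.15 CPM in the negative libraries, from 10 to 84 counts each. Outside the duodenum no library exceeded 0.948 CPM, and the 3 positive libraries of the colon had 0 counts. The groups of the duodenum overlapped, and their difference did not pass the test (log2 fold change 1.73 ± 1.16 SE, adjusted p = 0.324). With each library left out in turn, this fold change ranged from 0.92 to 2.13. None of the sort comparisons passed for *Cybrd1*. In the jejunum, where the positive libraries had 8, 0 and 13 counts and the negative libraries 2, 0 and 0, the adjusted p was 0.0794, and it was 0.0302 without the first negative library, 0.0328 without the second positive library, 0.0422 under scaling by library size alone and 0.0432 by the Wald test of DESeq2.

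*Slc11a2* (chr15:100387898-100425072), the apical iron importer, overlaps the gene *Gm5475* on the other strand, and the strand setting of the counts is not given in the sources used here. In the ileum it lay at 16.1, 13.2 and 17.95 CPM in the positive libraries and at 3.96, 7.51 and 5.54 CPM in the negative libraries. The positive libraries all lay above the negative ones (log2 fold change 1.47 ± 0.39, adjusted p = 0.00365). In the other regions the sorts overlapped. The positive duodenum had 3.48, 6.98 and 9.68 CPM and the negative 7.436, 8.883 and 7.498 CPM, and the jejunum had 7.86, 10.6 and 12.9 CPM against 5.16, 10.5 and 7.38 CPM and the colon 12.3, 8.35 and 4.39 CPM against 6.35, 9.01 and 4.76 CPM. The fold changes there were -0.24 ± 0.40, 0.44 ± 0.39 and 0.31 ± 0.39, with adjusted p of 0.718, 0.371 and 0.674. The sign in the duodenum turned under scaling by library size alone (0.22) and without the first positive library (0.06), and that in the colon without its first positive library (-0.07).

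*Fth1* (chr19:9980598-9985098), the storage protein, differed in opposite directions at the ends of the gut. In the duodenum the positive libraries lay at 358, 467 and 571 CPM and the negative libraries at 667, 1014 and 863 CPM. All positive libraries lay below the negative ones, and *Fth1* was lower in the positive cells (log2 fold change -0.87 ± 0.29, adjusted p = 0.0406). In the colon the positive libraries lay at 775, 823 and 600 CPM and the negative libraries at 297, 237 and 263 CPM. There *Fth1* was higher in the positive cells without overlap (1.46 ± 0.30, adjusted p = 0.00113). In the ileum the positive libraries (325, 462 and 407 CPM) also lay above the negative ones (202, 246 and 280 CPM), but the difference missed the threshold (0.72 ± 0.29, adjusted p = 0.0538), and it passed without the first positive library (adjusted p = 0.0438), with RLE factors (0.0402), with protein-coding nuclear genes alone (0.0447), with the sequencing index as covariate (0.0344) and by DESeq2 (0.00982). In the jejunum the levels were 377, 236 and 448 CPM against 430, 347 and 530 CPM and overlapped (-0.30 ± 0.29, adjusted p = 0.424), with a sign that turned without the second positive library (0.0072) and under library size alone (0.0115). The call in the duodenum was lost without the first or second positive library (adjusted p = 0.18 and 0.0934) or without the second negative or the third negative library (0.158 and 0.0929), and also under scaling by library size alone (0.461), without the filter (0.116) and with protein-coding nuclear genes alone (0.0544). *Fth1* has processed pseudogenes elsewhere in the genome, so how the counting treated shared reads can affect its level.

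*Heph* (chrX:96455359-96574485), the ferroxidase that works beside ferroportin, was higher in the positive cells of every region. In the jejunum the positive libraries lay at 223, 198 and 242 CPM and the negative libraries at 34.7, 44.0 and 57.3 CPM. The ileum was alike, with 135, 208 and 250 CPM against 26.2, 29.3 and 36.6 CPM. The jejunum gave a log2 fold change of 2.28 ± 0.27 (adjusted p = 2.27e-07) and the ileum one of 2.68 ± 0.28 (4.47e-08). In the duodenum *Heph* lay at 74.1, 87.4 and 89.9 CPM in the positive libraries and at 26.9, 39.8 and 35.4 CPM in the negative libraries. In the colon it lay at 56.6, 60.6 and 55.0 CPM against 22.3, 25.3 and 32.6 CPM. No groups overlapped, and the fold changes of 1.30 ± 0.27 and 1.10 ± 0.27 passed with adjusted p of 0.00113 and 0.00564. The gene overlaps *Hsf3* on the other strand and a pair of processed pseudogenes, so some reads could belong to these.

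*Slc40a1* (chr1:45908068-45926523), which encodes ferroportin, the only known exporter of iron from cells, was lowest in the jejunum in both sorts. The jejunum had 0.575, 2.85 and 0.146 CPM in the positive libraries (9, 51 and 2 counts) and 0.683, 2.83 and 2.06 CPM in the negative libraries. The duodenum had 10.6, 20.4 and 34.8 CPM in the positive and 17.3, 57.1 and 50.8 CPM in the negative libraries. In the ileum the levels were 20.2, 26.0 and 16.6 CPM against 8.91, 22.0 and 6.82 CPM. Sorts overlapped in these 3 regions, and no difference passed (log2 fold change -0.93 ± 0.56, -0.60 ± 0.67 and 0.73 ± 0.55 from duodenum to ileum, adjusted p = 0.26, 0.486 and 0.311). The value in the ileum ranged from 0.43 to 1.40 with each library left out. Without the second positive library of the jejunum, *Slc40a1* was lower in its positive cells (log2 fold change -2.24, adjusted p = 0.0262). In the colon the positive libraries had 69.4, 78.9 and 24.1 CPM and the negative libraries 18.2, 17.1 and 14.0 CPM. All positive libraries lay above the negative ones (1.81 ± 0.57, adjusted p = 0.0325), and the third positive library was the lowest of the positive libraries. That call was lost without the first or second positive library (log2 fold change 1.66 and 1.46, adjusted p = 0.101 and 0.166). It was also lost without any single negative library (1.89, 1.77 and 1.71, adjusted p = 0.0628, 0.0863 and 0.1), and by the Wald test of DESeq2 (1.72, adjusted p = 0.0768).

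*Tfrc* (chr16:32608920-32632794), the transferrin receptor by which cells take up iron from blood, and which dividing cells express strongly, was lower in the positive cells of every region. In the jejunum the positive libraries lay at 5.11, 10.2 and 17.2 CPM and the negative libraries at 95.7, 105 and 209 CPM. This was the largest of the 4 differences in size (log2 fold change -3.66 ± 0.42, adjusted p = 1.47e-07). In the duodenum the levels were 20.5, 39.2 and 60.0 CPM against 94.0, 147 and 127 CPM. In the ileum they were 26.7, 16.8 and 20.7 CPM against 65.6, 89.1 and 123 CPM, and in the colon 17.2, 24.4 and 24.7 CPM against 50.8, 78.3 and 77.0 CPM. No positive library reached a negative library of its region, with fold changes of -1.62 ± 0.39, -2.11 ± 0.39 and -1.64 ± 0.39 and adjusted p of 0.00445, 9.17e-05 and 0.00473. Markers of several cell types moved with it. Of 6 proliferative markers, 2, 6, 6 and 3 were lower in the positive cells from duodenum to colon. Their summed level in the positive and negative libraries was 487 to 989 and 1687 to 2333 CPM (duodenum), 35.2 to 300.3 and 1518 to 2477 CPM (jejunum), 117 to 226 and 1084 to 3695 CPM (ileum), and 51.0 to 59.6 and 92.5 to 228 CPM (colon), and none of the 6 was at 0 in all libraries of a group. Enteroendocrine markers were lower in the positive cells for 8, 8, 7 and 5 of 8, with sums of 18.5 to 51.6 against 211 to 1567 CPM over the small intestine and 151 to 312 against 491 to 840 CPM in the colon, and *Pyy* had 0 counts in the positive duodenum. Tuft markers were lower for 3, 4, 4 and 0 of 4, with sums of 2.11 to 5.51 against 10.2 to 40.6 CPM over the small intestine and 8.89 to 15.8 against 15.1 to 45.8 CPM in the colon, and *Pou2f3* had 0 counts in the positive jejunum. The part of these markers in the result was not tested.

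**Figure D2:**
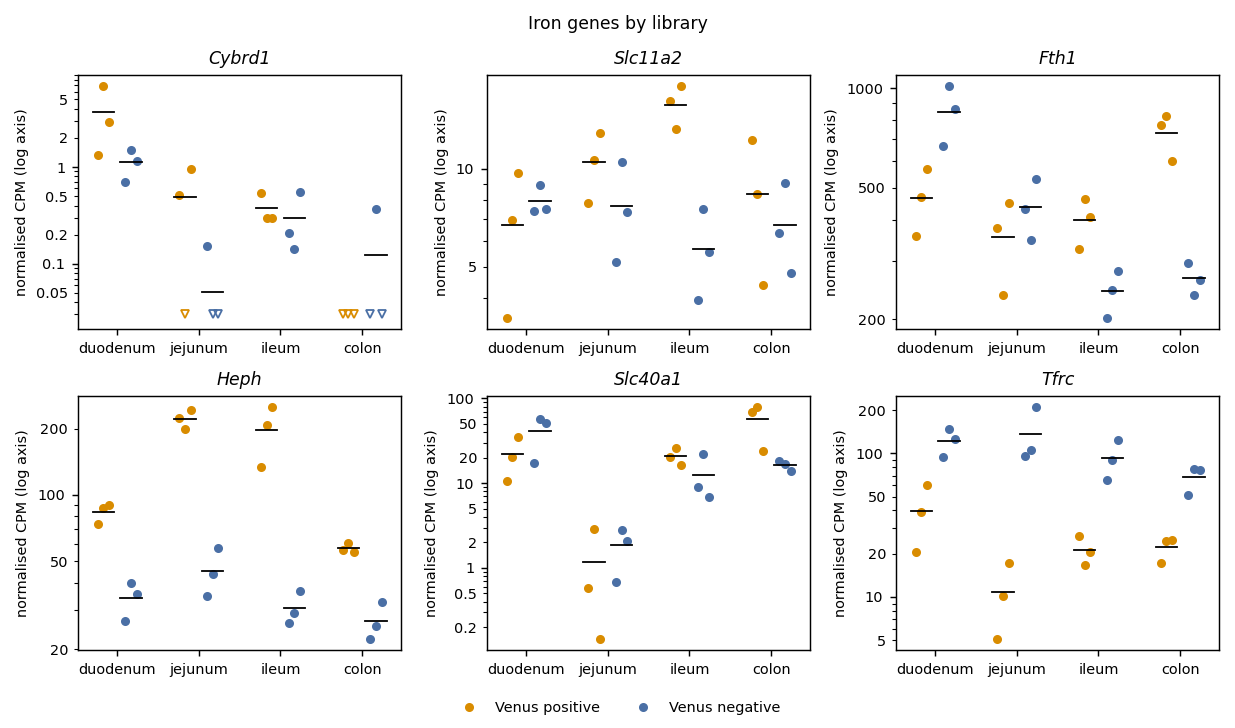
Normalised CPM (log axis) of the 6 iron genes in each of the 24 libraries by region (x axis), for Venus positive (orange) and Venus negative cells (blue). Dots are libraries, black bars are means of 3, and open triangles at the bottom are libraries with 0 counts. *Slc40a1* is lowest in the jejunum in both sorts, and *Heph* and *Tfrc* separate the sorts in every region.

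*Trpv6* (chr6:41620624-41636405), the apical calcium channel, was nearly absent from these counts. It had 0 counts in all 12 libraries of the jejunum and ileum. The second negative library of the duodenum had 19 counts (1.23 CPM), the third positive library of the colon had 5, and 1 count was found in each of a positive duodenum library and a negative colon library. All other libraries of the duodenum and colon had 0 counts. A count of 0 allows a level of up to the floor, so lower levels were not detectable at this depth.

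*S100g* (chrX:162961992-162964599), the cytosolic carrier of calcium, was high in the duodenum in both sorts and nearly absent from the positive cells of the jejunum. The duodenum had 15.3, 22.4 and 26.6 CPM in the positive and 19.2, 38.5 and 20.3 CPM in the negative libraries. These groups overlapped and their difference did not pass (log2 fold change -0.28 ± 0.53, adjusted p = 0.762), with a sign that turned under scaling by library size alone (0.21) and without the second negative library (0.11). In the jejunum the positive libraries had 3, 0 and 2 counts and the negative libraries 48, 23 and 25. All positive libraries lay below the negative ones (adjusted p = 0.000169). The ratio of the summed counts, scaled for library size, was 20.1 in favour of the negative cells, with an exact 95% counting interval of 8.31 to 63.2. The fitted log2 fold change was -4.26, and it was -4.92 without the first and -3.54 without the second positive library, with adjusted p up to 0.00256 over all libraries left out in turn. With another library left out it lay between these values, closest to the smaller change without the first negative library. In the ileum *S100g* lay at 4.95, 2.94 and 0.588 CPM in the positive and 1.03, 0.776 and 1.89 CPM in the negative libraries. These overlapped (1.24 ± 0.59, adjusted p = 0.096), and the difference passed without the third positive library (0.0228) and without the filter (0.0169). Over all libraries left out in turn, the fold change ranged from 0.57 to 1.70, with adjusted p up to 0.515. In the colon the positive libraries had 30.9, 28.3 and 5.94 CPM and the negative libraries 4.195, 2.49 and 2.21 CPM. The positive cells were higher without overlap (2.89 ± 0.59, adjusted p = 0.00115), again with the third positive library as the lowest of its group. *S100g* lies within the span of *Ctps2*, which is read from the other strand.

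*Atp2b1* (chr10:98914406-99026143), the pump that expels calcium from the cell, was higher in the positive cells of the 3 regions beyond the duodenum. In the ileum the positive libraries lay at 205, 163 and 200.4 CPM and the negative libraries at 47.8, 52.7 and 34.4 CPM. In the colon they lay at 184, 178 and 101 CPM against 34.6, 27.9 and 31.5 CPM, and in the jejunum at 54.5, 59.4 and 52.4 CPM against 24.6, 29.9 and 19.7 CPM. In none of these regions did the sorts overlap. Log2 fold changes were 2.07 ± 0.27 (ileum, adjusted p = 6.86e-07), 2.30 ± 0.27 (colon, 2.59e-06) and 1.16 ± 0.26 (jejunum, 0.00061). In the duodenum the levels were 23.4, 29.6 and 28.8 CPM in the positive and 28.1, 37.5 and 30.7 CPM in the negative libraries and overlapped (-0.24 ± 0.26, adjusted p = 0.573), with a sign that turned under scaling by library size alone (0.22).

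*Vdr* (chr15:97854425-97910630), the vitamin D receptor, lay between 30.3 and 128 CPM in all 24 libraries. In the jejunum the positive libraries lay at 124, 118 and 106 CPM and the negative libraries at 56.5, 62.9 and 49.3 CPM. Here *Vdr* was higher in the positive cells without overlap (log2 fold change 1.05 ± 0.35, adjusted p = 0.0156), and the call was lost without the third negative library (0.0558). In the duodenum the levels were 30.3, 32.8 and 81.3 CPM against 86.1, 52.3 and 75.0 CPM, in the ileum 113, 94.1 and 103 CPM against 99.8, 62.1 and 40.1 CPM, and in the colon 118, 128 and 92.5 CPM against 104, 60.4 and 45.2 CPM. The groups overlapped in these 3 regions and their differences did not pass (-0.56 ± 0.35, 0.62 ± 0.35 and 0.70 ± 0.35, adjusted p = 0.275, 0.161 and 0.194). Without the third positive library, the highest of its group, *Vdr* was lower in the positive duodenum (-1.18, adjusted p = 0.0251), and without the first negative library it was higher in the positive ileum (1.01, adjusted p = 0.0402).

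**Figure D3:**
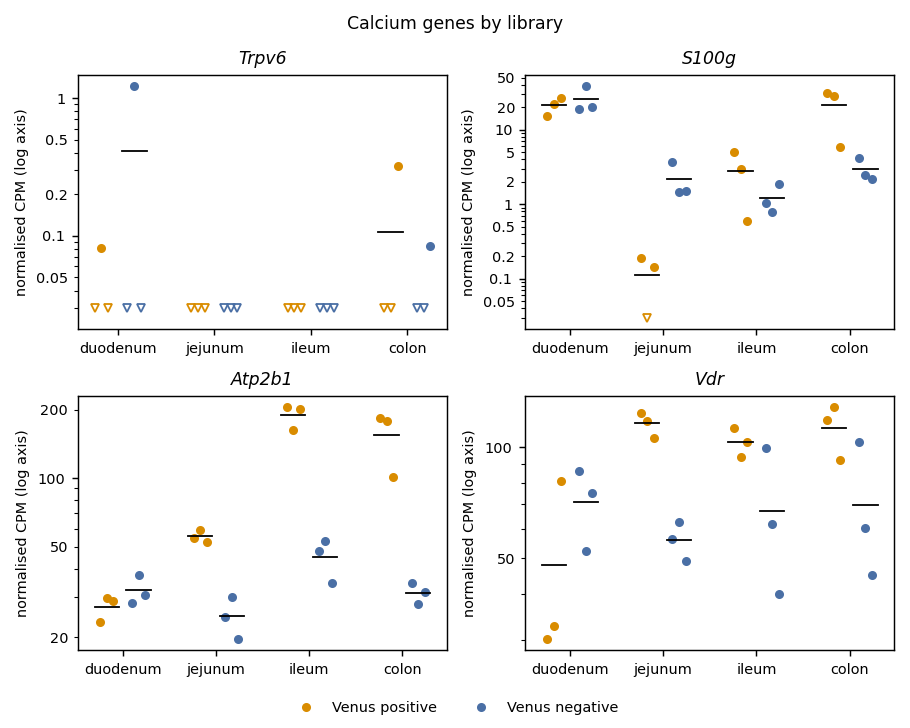
Normalised CPM (log axis) of the 4 calcium genes in each of the 24 libraries by region (x axis), for Venus positive (orange) and Venus negative cells (blue). Dots are libraries, black bars are means of 3, and open triangles at the bottom are libraries with 0 counts. Means below the axis are not drawn. *S100g* is at 15.3 CPM or above in both sorts of the duodenum and under 0.2 CPM in the positive jejunum, and *Trpv6* is at 0 in most libraries.

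Along the gut, few of the genes differed between regions in the negative cells. Of 54 tests, 8 passed, and these concerned *Slc40a1*, *Fth1* and *S100g*. *S100g* was higher in the negative duodenum than in the jejunum, ileum and colon (log2 fold change 3.56 ± 0.60, 4.42 ± 0.62 and 3.15 ± 0.59, adjusted p = 0.000774, 1.61e-05 and 0.000343), and the first of these was 4.17 without the first negative jejunum library. *Slc40a1* was lower in the negative jejunum than in the other regions: the log2 fold change of duodenum over jejunum was 4.47 ± 0.66 (adjusted p = 0.000126), and those of jejunum over ileum and colon were -2.74 ± 0.62 and -3.12 ± 0.63 (0.0102 and 0.000777). The difference from the ileum was lost without the first negative jejunum library (adjusted p = 0.077) or the second negative ileum library (-2.07, adjusted p = 0.12). *Fth1* was higher in the negative duodenum than in the ileum (1.81 ± 0.30, adjusted p = 0.00017) and colon (1.67 ± 0.30, adjusted p = 0.000171). Per comparison, 2 of 9 members passed between duodenum and jejunum (0.725% of all genes tested), 2 between duodenum and ileum (4.4%) and 2 between duodenum and colon (11.2%). Between jejunum and ileum 1 passed (2.11%), between jejunum and colon 1 (10.5%), and between ileum and colon 0 (5.24%), where *S100g* alone had an unadjusted p below 0.05 (0.0439).

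In the positive cells 28 of 54 tests between regions passed. *S100g* stood in the order colon (mean 21.7 CPM), duodenum (21.4 CPM), ileum (2.83 CPM) and jejunum (0.113 CPM). Colon and duodenum did not differ beyond their spread (adjusted p = 0.992), and the steps to the ileum (0.000451) and from there to the jejunum (0.000441) passed. The summed counts of the duodenum exceeded those of the jejunum 202-fold after scaling, with a counting interval of 86.1 to 624. The fitted log2 fold change was 7.54, and it was 8.20 without the first and 6.95 without the second positive jejunum library. *Slc40a1* had the order colon (57.4 CPM), duodenum (21.9 CPM), ileum (20.9 CPM) and jejunum (1.19 CPM), and of the neighbours only ileum and jejunum differed (log2 fold change of jejunum over ileum -4.07 ± 0.66, adjusted p = 0.000104). The second jejunum library held 51 of the 62 *Slc40a1* counts of that group, and without it the value was -5.78. *Atp2b1* was ordered otherwise, with ileum (189 CPM) and colon (154 CPM) not apart (adjusted p = 0.45), then jejunum (55.4 CPM) and duodenum (27.2 CPM), each lower than the one before (adjusted p = 5.65e-05 and 0.00312). *Heph* was at 221 CPM in the jejunum and 198 CPM in the ileum, which did not differ (0.845), and lower in the duodenum (83.8 CPM, adjusted p = 0.000931 from the ileum) and colon (57.4 CPM, 0.199 from the duodenum). *Vdr* was lower in the duodenum (48.1 CPM) than in the jejunum (116 CPM), ileum (103 CPM) and colon (113 CPM), with adjusted p of 0.00576, 0.0201 and 0.0161. The differences from the ileum and colon were lost without the first (0.11 and 0.109) or second (0.116 and 0.114) positive duodenum library, and that from the colon also without the second positive colon library (0.0712) and under scaling by library size alone (0.183).

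The remaining calls in the positive cells concerned the other iron genes. *Tfrc* was higher in the duodenum (39.9 CPM) than in the jejunum (10.8 CPM; log2 fold change 1.88 ± 0.40, adjusted p = 0.000482). It was also higher in the colon (22.1 CPM) than in the jejunum (adjusted p = 0.0401), but those libraries overlapped and the call was lost without the first or second jejunum library (0.227 and 0.116) or the second colon or the third colon library (0.095 and 0.112), and under library size alone (0.144). *Fth1* was lower in the jejunum (354 CPM) and ileum (398 CPM) than in the colon (733 CPM), with adjusted p of 0.00641 and 0.0307. The first was lost without the second jejunum library (0.0632), and the second without any single library of the ileum (0.0525 to 0.111) or without the first or second of the colon (0.0914 and 0.094), and both under library size alone (0.083 and 0.473). *Slc11a2* was lower in the duodenum (6.71 CPM) than in the ileum (15.8 CPM, adjusted p = 0.0218), which was lost without the first or second duodenum library (0.121 and 0.059) or the third ileum library (0.0733). *Cybrd1* was higher in the duodenum (3.72 CPM), jejunum (0.486 CPM) and ileum (0.378 CPM) than in the colon, where all 3 libraries had 0 counts (adjusted p = 0.00134, 0.0165 and 0.0343). Of these, the ileum call was lost without any single library compared (0.0527 to 0.106), and the jejunum call without the third jejunum (0.0548) or the third colon library (0.0565). The jejunum and colon libraries overlapped, as the second positive jejunum library also had 0 counts. The *Cybrd1* means of the jejunum and ileum were only 2.29 and 1.78 times the mean floor of the positive colon libraries. Per comparison, 6 of 9 members passed between duodenum and jejunum (33.2% of all genes tested), 5 between duodenum and ileum (25.5%), 3 between duodenum and colon (12.4%), 3 between jejunum and ileum (5.15%), 7 between jejunum and colon (33.9%) and 4 between ileum and colon (21.7%).

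Markers of other cell types also moved between the regions. The summed level of the 8 goblet markers was 53010 to 60460 CPM in the positive libraries of the duodenum and 1907 to 10090 CPM in those of the other regions. The 6 Paneth markers summed to 22150 to 52960 CPM in the positive duodenum, 1541 to 16120 CPM in the positive jejunum, 4072 to 9629 CPM in the positive ileum and 43.3 to 201 CPM in the positive colon, and to at most 795 CPM in any negative library. The sum of the 12 enterocyte markers was 26140 to 31190 CPM in the positive jejunum, 9236 to 17750 CPM in the positive ileum, 2253 to 4818 CPM in the positive duodenum and 600 to 815 CPM in the positive colon. The 4 colonocyte markers summed to 1461 to 1648 CPM in the positive and 101 to 258 CPM in the negative colon, and to at most 158 CPM in any library of the other regions. Between the sorts of the colon these markers moved with *Atp2b1*, *S100g*, *Slc40a1*, *Fth1* and *Heph*, which were also higher in the positive cells. So were all 8 goblet markers, with sums of 4068 to 4978 against 926 to 1848 CPM. Of the 12 enterocyte markers 6 were higher there, with sums of 600 to 815 against 217 to 225 CPM. In the negative cells the goblet sum was 296 to 1848 CPM and the enterocyte sum 217 to 3413 CPM over the 4 regions. In none of the 8 groups were all 3 libraries at 0 counts for any enterocyte, colonocyte, goblet or Paneth marker. Their part in the differences given here was not tested.

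Whether the difference between positive and negative cells depended on the region was tested by interaction contrasts, of which 19 of 54 passed for the members. Between duodenum and jejunum 4 of 9 passed (14.6% of all genes tested), between duodenum and ileum 4 (10.5%) and between duodenum and colon 4 (3.62%). Between jejunum and ileum 1 passed (0.266%), between jejunum and colon 5 (9.69%) and between ileum and colon 1 (2.79%). For *Atp2b1* the log2 fold change in the duodenum minus that in the jejunum, ileum or colon was -1.40 ± 0.37, -2.31 ± 0.37 or -2.54 ± 0.37 (adjusted p = 0.00999, 0.00014 and 8.09e-05), and these calls held without each library in turn, while that against the jejunum was lost under library size alone (0.0522). For *Fth1* the duodenum minus the colon gave -2.33 ± 0.42 (adjusted p = 0.000774), which also held without each library. The contrasts share libraries, so they are not independent of each other.

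Between genes, levels were compared per kb of exon in GENCODE M21. *Fth1* was the highest member in each of the 8 groups, at a mean of 69.9 to 244 CPM per kb. *S100g*, whose exons span 0.48 kb, reached 54.2 CPM per kb in the negative duodenum, 45.3 in the positive colon and 44.6 in the positive duodenum. It was at 0.234 CPM per kb in the positive jejunum, where *Heph* was at 28.8 and *Vdr* at 20.5. *Slc11a2* lay between 0.893 and 2.48 CPM per kb in all groups, and *Cybrd1* at or below 0.696. *Tfrc* lay at 1.75 to 22.1 CPM per kb, and in the positive jejunum, where it was lowest, its libraries (0.827, 1.64 and 2.78) overlapped those of *Slc11a2* (1.24, 1.67 and 2.03).

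**Figure D4:**
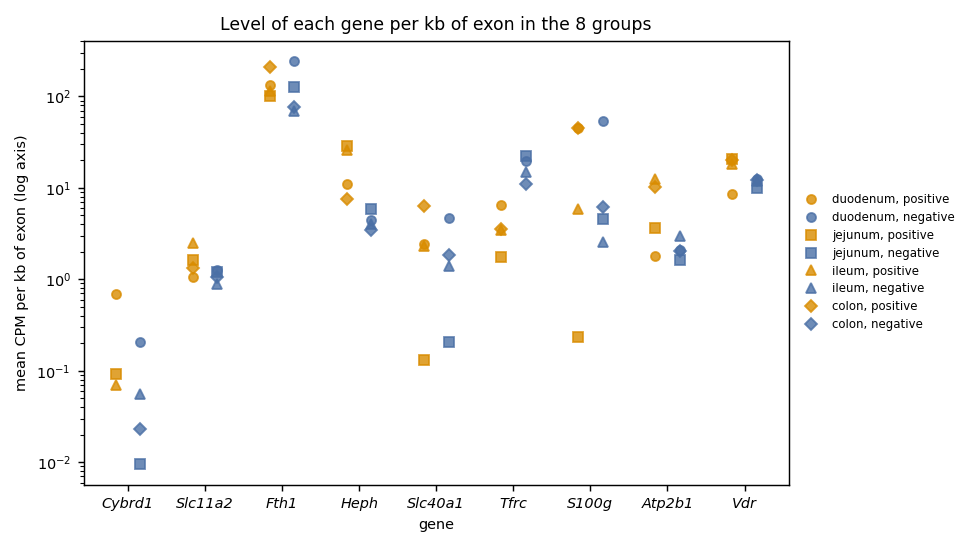
Mean CPM per kb of exon (log axis) of the 9 tested genes (x axis) in the 8 groups, with the region as symbol and the sort as colour (orange positive, blue negative). Each symbol is a mean of 3 libraries, and the positive colon is left out for *Cybrd1*, which had 0 counts there. *Fth1* is highest, and *S100g* spreads from 0.234 to 54.2 CPM per kb.

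The lists of other iron, calcium and vitamin D genes were chosen with earlier results of these data known. Of 31 other genes of iron handling, 24 were tested. Higher and lower in the positive cells were 3 and 0 (duodenum), 12 and 7 (jejunum), 6 and 3 (ileum) and 1 and 0 (colon), where 17%, 43.9%, 38.5% and 13.1% of all genes tested passed in either direction. Their median log2 fold change was 0.15, 0.24, -0.04 and 0.07 in that order, beside -0.16, -0.28, -0.27 and 0 over all genes tested. *Epas1*, which encodes HIF-2α, a factor that drives *Cybrd1*, *Slc11a2* and *Slc40a1* in enterocytes, was higher in the positive cells of all 4 regions (1.33 ± 0.39, 3.29 ± 0.43, 2.09 ± 0.40 and 1.38 ± 0.39 from duodenum to colon, adjusted p = 0.0182, 7.95e-07, 0.000123 and 0.0167). Its positive libraries in the jejunum lay at 15.1 to 25.6 CPM and its negative libraries at 0.911 to 4.57 CPM. *Ftl1*, the ferritin light chain, was higher in the positive jejunum (1.25 ± 0.29, adjusted p = 0.000862), at 28.2 to 47.0 CPM against 12.98 to 19.54 CPM. Its libraries did not overlap in the ileum (18.7 to 25.1 against 11.25 to 17.8 CPM, adjusted p = 0.0563) and colon (29.7 to 43.7 against 18.5 to 26.9 CPM, adjusted p = 0.0919) either, and the differences between regions were not tested for *Ftl1*. *Flvcr2*, a carrier first described in haem transport, was higher in the jejunum (5.11 to 6.75 CPM against 0.303 to 0.708 CPM, adjusted p = 0.00264) and ileum (1.13 to 3.83 CPM against 0 to 0.212 CPM, adjusted p = 0.000888). *Steap1*, of a family of metalloreductases, was lower in both (0.112 to 0.511 CPM against 0.987 to 3.15 CPM and 0 to 0.441 CPM against 0.99 to 5.27 CPM, adjusted p = 0.0189 and 0.00202). *Hmox1*, which breaks down haem, passed in the jejunum (adjusted p = 0.0164) at 0.365 to 0.669 CPM in the positive libraries, close to the floor, with 0 counts in the 3 negative libraries.

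Of 25 other genes of calcium handling, 19 were tested. Those higher and lower in the positive cells were 3 and 1 (duodenum), 3 and 5 (jejunum), 2 and 2 (ileum) and 2 and 0 (colon), beside 17%, 43.9%, 38.5% and 13.1% of all genes tested, with medians of -0.26, -0.175, -0.02 and 0.20. *Slc8a1*, a sodium-calcium exchanger, was lower in the positive cells of the duodenum (adjusted p = 0.0386), jejunum (9.3e-05) and ileum (0.048) and higher in those of the colon (0.00368), where it lay at 31.4 to 43.2 CPM against 0.479 to 7.69 CPM. *Itpr2*, a calcium release channel of the endoplasmic reticulum, was higher in the jejunum, ileum and colon (1.29 ± 0.38, 2.004 ± 0.38 and 1.13 ± 0.38, adjusted p = 0.00669, 0.000127 and 0.0464). *Cldn2*, a claudin of cation-permeable tight junctions, was lower in the positive jejunum (0.384 to 5.18 CPM against 11.7 to 24.3 CPM, adjusted p = 2.21e-05). *Trpv5* and *Calb1* had at most 4 counts in any library and were not tested.

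Of 14 genes of vitamin D metabolism and response, 10 were tested, and none was lower in the positive cells of any region at the threshold. From duodenum to colon 1, 5, 4 and 5 were higher, where 17%, 43.9%, 38.5% and 13.1% of all genes passed in either direction. The medians were 0.44, 0.99, 0.63 and 0.80, beside -0.16, -0.28, -0.27 and 0 over all genes tested. *Cubn*, an endocytic receptor that takes up vitamin B12 with intrinsic factor in the ileum and vitamin D binding protein in the kidney, was higher in all 4 (1.77 ± 0.46, 3.90 ± 0.46, 4.31 ± 0.47 and 3.53 ± 0.51, adjusted p = 0.0082, 2.11e-07, 7.41e-08 and 2.58e-05). *Slc30a10*, a manganese exporter that responds to vitamin D in intestinal cells, was higher in the jejunum, ileum and colon (3.23 ± 0.66, 5.18 ± 0.77 and 4.2005 ± 0.73, adjusted p = 0.000228, 5.15e-06 and 0.000202). *Cyp3a11*, a drug-metabolising cytochrome, was higher in the jejunum (180 to 409 CPM against 15.4 to 28.2 CPM, adjusted p = 4.62e-08) and ileum (18.2 to 31.0 CPM against 0.564 to 1.77 CPM, 1.21e-08). *Cyp24a1*, the vitamin D hydroxylase that is a standard marker of vitamin D action, had at most 3 counts in any library and was not tested. Enterocyte markers moved the same way in the jejunum and ileum, as given above. In the colon 6 of 12 enterocyte and all 4 colonocyte markers did so, and the 8 goblet markers did in every region. The part of these markers was not tested.

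**Figure D5:**
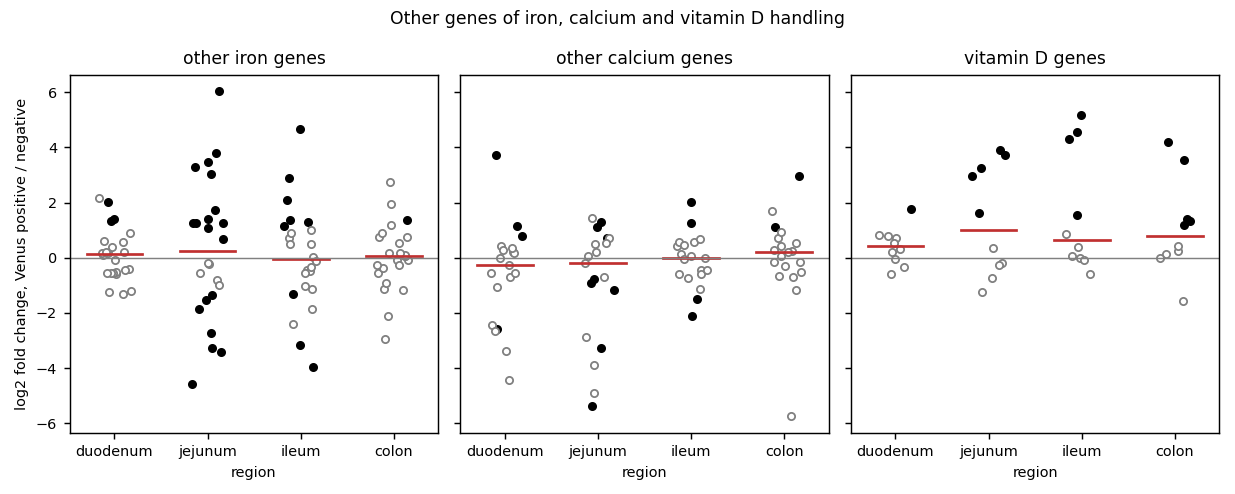
Log2 fold change of Venus positive over negative cells (y axis) of the tested genes of the iron, calcium and vitamin D lists, by region (x axis). Each point is a gene, filled where it passed an adjusted p of 0.05, and red lines are medians of the list. In the vitamin D list all filled points lie above 0.

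The 9 tested genes did not vary as one group over the 24 libraries. As a description, Pearson's r of log2 CPM over these libraries, which share region, sort and depth, was 0.72 for *Slc40a1* with *S100g*, 0.68 for *Fth1* with *S100g*, 0.67 for *Atp2b1* with *Vdr* and -0.76 for *Heph* with *Tfrc*. Between *Slc40a1* and its partner ferroxidase *Heph* it was -0.32. Among 12499 protein-coding genes, those most like *Heph* were *Cd82*, a tetraspanin (r = 0.985), and *Anxa2*, a calcium-dependent membrane-binding protein (0.974). Those most like *Tfrc* were *Ranbp1*, of the Ran cycle of nuclear transport (0.955), and *Knstrn*, a mitotic spindle protein (0.954). *Atp2b1* was most like *Prkab1*, a subunit of AMP-activated kinase (0.907), and the lysosomal sialidase *Neu1* (0.905), and *Vdr* most like *Syne2* (0.847) and the phosphate exporter *Xpr1* (0.845). *S100g* was most like *Lypd8*, a secreted colonic protein that binds flagella (0.847), and *Mid1ip1* (0.839), and *Cybrd1* most like *Slfn5* (0.823) and *Tmprss15*, the duodenal enteropeptidase (0.816). The closest genes to the others had lower values, namely *Wipi2* (0.793) and *Prmt2* (0.751) for *Slc11a2*, *Gpat4* (0.756) and *Fhdc1* (0.741) for *Slc40a1*, and the trefoil factor *Tff2* (0.769) and *Cyp2c65* (0.736) for *Fth1*.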

How the data were processed

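RNA of sorted cells was made into libraries with the SMARTer stranded total RNA pico v2 kit and sequenced as single-end reads. The authors aligned the reads to GRCm38 with STAR (version 2.5.1 in the submitters' processing notes), counted those mapped uniquely per gene with the same program, and the authors deposited these counts, not normalised, for 53465 genes and 24 libraries. The annotation and strand setting are not given in the sources used here. The 4 lines of reads that were not counted on a gene, 39.4% to 75.8% of reads per library, were left out. They can include reads that did not map uniquely, so they are no measure of reads between genes. Their share was higher in the positive libraries, without overlap, in the duodenum (64.6% to 75.8% against 45.4% to 55.2%) and ileum (54.1% to 60.6% against 49.5% to 53.2%). In the jejunum and colon the sorts overlapped. The part of this share in the results was not tested.

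Counts were tested in R 4.3.3 with edgeR 4.0.16 (TMM, filterByExpr with a minimum count of 10 and total of 15, quasi-likelihood F-test, 1 coefficient for each of 8 groups), which left 15044 genes. P values were adjusted by Benjamini-Hochberg over all of these, two-sided, at 0.05. P values measure the spread between libraries. Names, positions and exon lengths came from GENCODE M21. Correlations used log2 CPM with a prior count of 2. Alternatives were DESeq2 1.42.0 (the tool the authors used), RLE factors, library size alone, no filter, protein-coding nuclear genes alone, a filter of 10 counts in each library, the i5 index as covariate, the compared libraries alone, and each library left out. The tests were tested on simulated data, but the outcome is not given here and no result rests on it.

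The members and the iron, calcium, vitamin D and marker lists were chosen with earlier results of these data known. Named by rule were all members, *Guca2a*, the 3 genes of each list with the largest mean change where past the threshold, *Ftl1*, *Epas1*, *Trpv5*, *Calb1* and *Cyp24a1*, and the 2 protein-coding genes most correlated with each tested member.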

Additional observations from a re-analysis of the deposited data

Results flagged for a closer look

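For 19 differences between positive and negative cells, the test of the difference between 2 regions passed the threshold (edgeR interaction contrast, adjusted over 15044 genes). Values are the log2 fold change in the region named first minus that in the second.

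Between duodenum and jejunum they were 2.04 ± 0.54 for *Tfrc* (adjusted p = 0.0108), 3.97 ± 1.03 for *S100g* (0.00885), -1.40 ± 0.37 for *Atp2b1* (0.00999) and -1.61 ± 0.49 for *Vdr* (0.0255). *Tfrc* was thus lower in positive cells by less in the duodenum than in the jejunum. The value for *S100g* comes from 5 counts in the positive jejunum and is no bound, and it ranged from 3.33 (without the second positive jejunum library) to 4.63 (without the first) with each library left out. That for *Vdr* was lost without any of 6 of the 12 libraries compared (the first or second positive or the first or the third negative duodenum library, and the first positive or the third negative jejunum library), with adjusted p of 0.00176 to 0.083 over all 12, and under scaling by library size alone (0.0724), as was that for *Atp2b1* (0.0522). Without the third positive duodenum library the *Vdr* value was -2.22.

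Between duodenum and ileum they were -1.71 ± 0.56 for *Slc11a2* (0.0441), -1.38 ± 0.37 for *Heph* (0.0148), -1.58 ± 0.42 for *Fth1* (0.0122) and -2.31 ± 0.37 for *Atp2b1* (0.00014). That for *Slc11a2* was lost without any of 10 of 12 libraries (all but the third positive duodenum and the second negative ileum library, 0.0221 to 0.128 over the 12), without the filter (0.0554) and under library size alone (0.168), and that for *Heph* without the second negative duodenum library (0.0515) or the third positive ileum library (0.0704) and under library size alone (0.216). That for *Fth1* held without each library but was lost under library size alone (0.148).

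Between duodenum and colon they were -2.74 ± 0.79 for *Slc40a1* (0.0489), -2.33 ± 0.42 for *Fth1* (0.000774), -3.17 ± 0.79 for *S100g* (0.0174) and -2.54 ± 0.37 for *Atp2b1* (8.09e-05). That for *Slc40a1* was lost without any of 9 of 12 libraries (all but the first negative and the third positive duodenum and the third positive colon library, 0.0213 to 0.171 over the 12), and with RLE factors (0.0607), library size alone (0.137), protein-coding nuclear genes alone (0.0604) and DESeq2 (0.116). That for *S100g* was lost without any of 5 (the first positive or second negative duodenum library, or the first positive, second positive or second negative colon library, 0.00302 to 0.0735 over the 12) and under library size alone (0.0536).

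Between jejunum and ileum *S100g* alone passed, at -5.50 ± 1.05 (0.00993), and not in a fit of the compared libraries alone (0.113). This value ranged from -6.16 to -4.80 with each library left out, and that for *S100g* between jejunum and colon, given next, from -7.82 to -6.39, the ends of both being without the first and the second positive jejunum library. Between jejunum and colon the values were 1.18 ± 0.37 for *Heph* (0.0411), -1.76 ± 0.42 for *Fth1* (0.00675), -2.03 ± 0.55 for *Tfrc* (0.0166), -7.14 ± 1.03 for *S100g* (0.000101) and -1.14 ± 0.37 for *Atp2b1* (0.0459). That for *Heph* was lost without any of 8 of 12 libraries (all but the second positive and the third negative jejunum and the first and second negative colon libraries, 0.0269 to 0.107) and without the filter (0.0663). That for *Atp2b1* was lost without any of 10 (all but the third negative jejunum and the third positive colon library, 0.023 to 0.165), and with RLE factors (0.117), library size alone (0.37), no filter (0.226), protein-coding nuclear genes alone (0.0744), the compared libraries alone (0.177) and DESeq2 (0.0551). That for *Tfrc* was lost without any of 4 (the first positive, the second positive or the third negative jejunum library or the second positive colon library, 0.0564 to 0.0701), under library size alone (0.0687) and with the compared libraries alone (0.0536). That for *Fth1* was lost without the second positive jejunum library (0.0568) and under library size alone (0.0847). Between ileum and colon *Heph* passed at 1.58 ± 0.38 (0.0191), which was lost without any of 7 of 12 libraries (all but the first positive and the third negative ileum and the first negative, second positive and second negative colon libraries, 0.00626 to 0.0866) and under library size alone (0.052).

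The calls for *Atp2b1* between the duodenum and each other region, for *Fth1* between the duodenum and ileum or colon, for *Tfrc* between duodenum and jejunum, and for *S100g* between the jejunum and each other region held without each library in turn.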

How the results depend on the processing

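Under scaling by library size alone, the median over all genes moved by 0.45 (duodenum) and 0.33 (jejunum) in the sort comparisons, the share of calls that were higher went from 52.4% to 86.6% in the duodenum and from 41.7% to 53.1% in the jejunum, and RLE factors moved the jejunum median by 0.12. The share of higher calls also moved under library size alone between regions, in negative cells from 61.3% to 9.5% (duodenum over ileum), 59.0% to 48.7% (duodenum over colon), 80.8% to 17% (jejunum over ileum), 63.9% to 53.2% (jejunum over colon) and 57.7% to 87.2% (ileum over colon), and in positive cells from 47.2% to 69.9% (duodenum over colon), 41.7% to 23.1% (jejunum over ileum), 42.4% to 53.7% (jejunum over colon) and 49.3% to 78.7% (ileum over colon). In negative cells it went to 51.6% and 52.1% (jejunum over colon) and 45.5% and 45.9% (ileum over colon) with RLE factors and with protein-coding nuclear genes alone. Members lower in the positive duodenum went from 2 to 1 under library size alone, without the filter and with protein-coding nuclear genes alone, and ranged from 1 to 3 with each library left out (3 without the third positive library, where *Vdr* passed). With at least 10 counts in every library, which leaves *Cybrd1*, *S100g* and *Slc40a1* untested, members lower in the jejunum went from 2 to 1, higher in the colon from 5 to 3, and calls between regions from 8 to 2 in negative and 28 to 18 in positive cells, where *Tfrc* between duodenum and ileum was gained. Calls of the sort difference between regions went from 19 to 8 under library size alone. Those lost were *Atp2b1* (0.0522) and *Vdr* (0.0724) between duodenum and jejunum, *Slc11a2* (0.168), *Heph* (0.216) and *Fth1* (0.148) between duodenum and ileum, *Slc40a1* (0.137) and *S100g* (0.0536) between duodenum and colon, *Fth1* (0.0847), *Tfrc* (0.0687) and *Atp2b1* (0.37) between jejunum and colon, and *Heph* (0.052) between ileum and colon, with adjusted p in parentheses. Signs turned under library size alone, with no call before or after, for *Slc11a2* (0.22), *S100g* (0.21) and *Atp2b1* (0.22) in the duodenum and *Fth1* (0.0115) in the jejunum. With each library left out, sign changes gave ranges of -0.60 to 0.0585 for *Slc11a2* and -0.47 to 0.11 for *S100g* in the duodenum, -0.51 to 0.0072 for *Fth1* in the jejunum and -0.0711 to 0.62 for *Slc11a2* in the colon, and *Cybrd1* in the colon had no value without the second negative library, as no counts remained. The cause of these changes was not tested. With protein-coding nuclear genes alone every level rose 3.59 to 4.17-fold, as mitochondrial reads left the total. No paired analysis was possible because the labels name no mouse and no replicate number.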
